A study of Mus musculus with 3 samples.

Results

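The genes described here are 9 genes of iron uptake, storage and export: *Tfrc*, *Trf*, *Slc11a2*, *Steap3*, *Slc25a37*, *Fth1*, *Ftl1*, *Slc40a1* and *Hmox1*. They were taken by gene symbol from a table of 26970 genes, each symbol matched 1 row, and all 9 averaged 1 FPKM or more across the libraries, as did 13026 genes in all. RNA was sequenced from the mandibular condyle, the bony and cartilaginous head of the lower jaw, of mice 4 months old on a C57BL/6 background. The groups were WT (+/+), Dspp+/- (1 allele of *Dspp*, a matrix protein gene of dentin and bone, deleted in every cell of the body) and Dspp-/- (both alleles deleted), with 1 library each. The labels speak of triplicate samples, but the table gives 1 value per gene and genotype. The methods describe tissue of 3 animals pooled into 1 sample for WT and for Dspp+/-, and the number of animals behind the Dspp-/- library was not given in the sources used here. No treatment is named, and the sex of the animals was not given either. The level of *Dspp*, which would check the genotype labels, was not analysed here. With 1 library per genotype there is no replicate error and no test between genotypes, and each difference below is one between single libraries.

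Cells take up iron bound to transferrin, the plasma carrier encoded by *Trf*, through the transferrin receptor encoded by *Tfrc*. In the endosome the reductase STEAP3 reduces the iron, and the transporter DMT1, encoded by *Slc11a2*, moves it to the cytosol. From there it enters mitochondria through mitoferrin 1, encoded by *Slc25a37*, is stored in ferritin cages of heavy (*Fth1*) and light (*Ftl1*) chains, or leaves the cell through ferroportin, encoded by *Slc40a1*. Heme oxygenase 1, encoded by *Hmox1*, frees iron from heme. Red cell precursors are the largest iron users of the marrow, macrophages recycle iron from old red cells, and both lie in the marrow spaces of bone.

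Several of these mRNAs carry an iron-responsive element, a short hairpin that iron regulatory proteins bind when iron is scarce. In the 5′ untranslated region the bound hairpin blocks translation, and in the 3′ untranslated region it protects the mRNA from decay. The core of the hairpin was searched for as a C, 5 bases, the loop CAGTGN and 5 bases that pair with the first 5, with G-T pairs allowed, on the sense strand of 1 principal transcript per gene in GENCODE M21 (build GRCm38). It was found in 4 of the 9 genes and in 1.20% of 21866 such transcripts. The 17-base cores are shown, with the loop in capitals, since they are the stretch of these mRNAs that iron regulatory proteins bind. *Alas2*, the erythroid gene for the first enzyme of heme synthesis, is shown beside them.
Fth1, 5′ untranslated region, chr19:9982738-9982754, plus strand: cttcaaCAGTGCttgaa
Ftl1, 5′ untranslated region, chr7:45459785-45459801, minus strand: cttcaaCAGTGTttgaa
Slc40a1, 5′ untranslated region, chr1:45925471-45925487, minus strand: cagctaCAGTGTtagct
Alas2, 5′ untranslated region, chrX:150547464-150547480, plus strand: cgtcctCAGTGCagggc
Tfrc, 3′ untranslated region, chr16:32631225-32631241, plus strand: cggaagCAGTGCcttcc
Tfrc, 3′ untranslated region, chr16:32631604-32631620, plus strand: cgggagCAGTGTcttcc
Tfrc, 3′ untranslated region, chr16:32631669-32631685, plus strand: cggagaCAGTGAtctcc
Tfrc, 3′ untranslated region, chr16:32631716-32631732, plus strand: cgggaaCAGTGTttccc

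The cores of *Fth1* and *Ftl1* are identical at 16 of 17 bases, and that of *Slc40a1* shares 11 of 17 with *Ftl1*. The last *Tfrc* match listed also shares 11 of 17 with each of *Slc40a1* and *Ftl1*. The first C and the CAGTG of the loop are fixed by the search, so part of each identity was set in advance. *Tfrc* holds 4 matches, and the other 5 genes hold none of this exact form in the transcript searched. *Slc11a2* is among these 5, although some of its transcripts are known to carry a 3′ element of another form, which the pattern does not cover. A match is a description of the letters, and the sequencing reads RNA level alone, so translation under these hairpins was not measured.

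The deposited values were read as FPKM (fragments scaled by exon length and by library size), and the libraries held 20241576 (WT), 23613621 (Dspp+/-) and 22253158 (Dspp-/-) fragments. Mitochondrial genes took 25.0%, 36.9% and 37.3% of the summed FPKM in the same order. *Xist*, expressed from the inactive X chromosome of females, had 0.00551, 28.5 and 26.5 FPKM, so sex and genotype cannot be told apart in these libraries. The labelled tissue was checked against marker lists. All 12 osteoblast genes listed had fragments in every library, with a summed level of 13693 FPKM in WT against 3667 in Dspp+/- and 7297 in Dspp-/-, and the 13 chondrocyte genes summed to 1892, 522 and 842 FPKM, with 1 of them at 0 in Dspp+/-. Marrow markers went the other way, with the 12 neutrophil genes at 631, 2854 and 3783 FPKM. In bulk tissue, fewer cells of a type and less RNA per cell cannot be told apart. Both mutant libraries are set against the same WT library.

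By level per length in WT, the order was *Fth1* (319 FPKM), *Ftl1* (266), *Tfrc* (48.5), *Trf* (33.2), *Steap3* (8.69), *Hmox1* (6.72), *Slc25a37* (6.63), *Slc11a2* (5.92) and *Slc40a1* (4.83). The ferritin chains were the 79th and 96th most abundant of the genes compared, which places them in the top 0.606% and 0.737%. *Hmox1* and *Slc25a37* did not differ beyond counting error in WT, with a ratio of 1.01 (95% Clopper-Pearson interval 0.873 to 1.17). In Dspp+/- *Slc25a37* stood next to *Trf*, with a ratio of 1.02 (0.967 to 1.07), and *Slc40a1* next to *Steap3*, with 1.07 (1.00 to 1.15). In Dspp-/- *Hmox1*, *Steap3* and *Slc40a1* followed each other without a separation beyond counting error. This order and its ties depend on the length used, the merged exons, which span 9000 bases for *Slc40a1* against 3370 in its principal transcript. Per length of the principal transcript, *Slc40a1*, *Hmox1* and *Steap3* stood at 27.9, 12.9 and 12.1 in Dspp-/-. In Dspp+/- *Slc40a1* and *Steap3* then stood at 25.5 and 9.85. In WT *Slc40a1* (12.9) was then above *Steap3* (9.63), *Slc25a37* (9.56) and *Hmox1* (7.49). Counting error is all that these intervals hold, and the variation among animals is outside them.

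**Figure D1:**
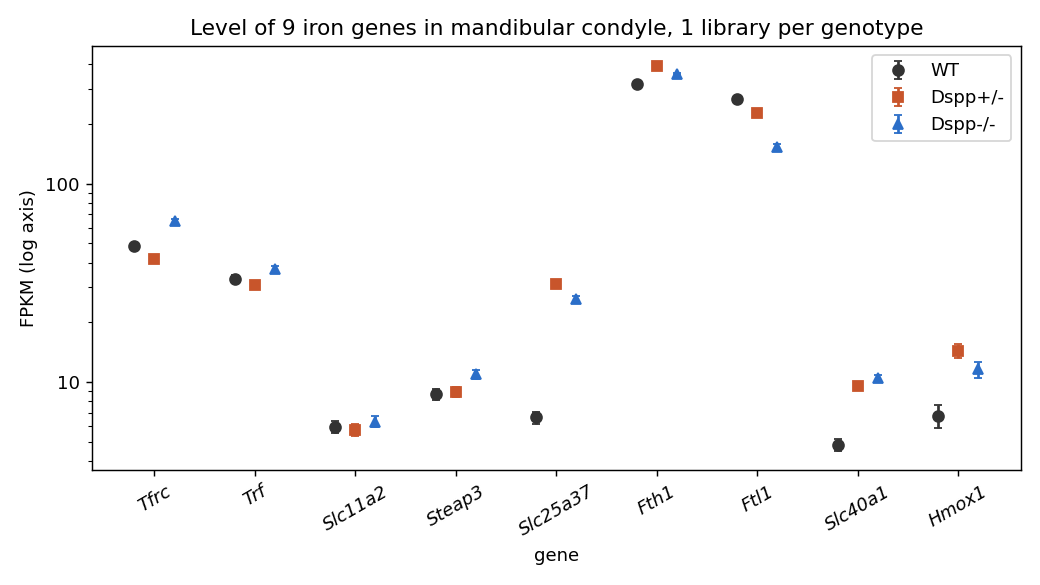
Level of the 9 genes (x axis) in FPKM on a log axis (y axis), 1 point per library, with 95% exact Poisson intervals of the fragment count as bars. *Slc25a37* moves from 6.63 FPKM in WT to 31.2 and 26.4, while the points of *Slc11a2* lie between 5.72 and 6.32.

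Levels were set against each other as log2 ratios of FPKM + 1, a scale that understates the change of low genes, and a gene was counted as higher or lower from a 2-fold ratio on that scale. Of the 9 genes, 1 was at least 2-fold higher in Dspp+/- than in WT, beside 4.88% of all genes compared, and 0 were at least 2-fold lower, beside 2.86%. In Dspp-/- against WT the counts were again 1 higher, beside 4.05%, and 0 lower, beside 1.37%. Between the mutant libraries, Dspp-/- against Dspp+/-, 0 of the 9 genes passed in either direction, beside 0.852% of all genes higher and 0.798% lower. The 1 gene in both comparisons with WT was *Slc25a37*. *Hmox1* in Dspp+/- lay just outside the threshold, with a log2 ratio of 1.00 (0.998542 before rounding), and *Slc40a1* in Dspp-/- lay outside with 0.97. The median log2 ratio of the 9 genes was 0.03 in Dspp+/- and 0.30 in Dspp-/-, beside 0.06 and 0.01 over all genes compared. In Dspp-/- 8 of the 9 were above WT and in Dspp+/- 5 were, beside 50.7% and 56.3% of all genes.

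**Figure D2:**
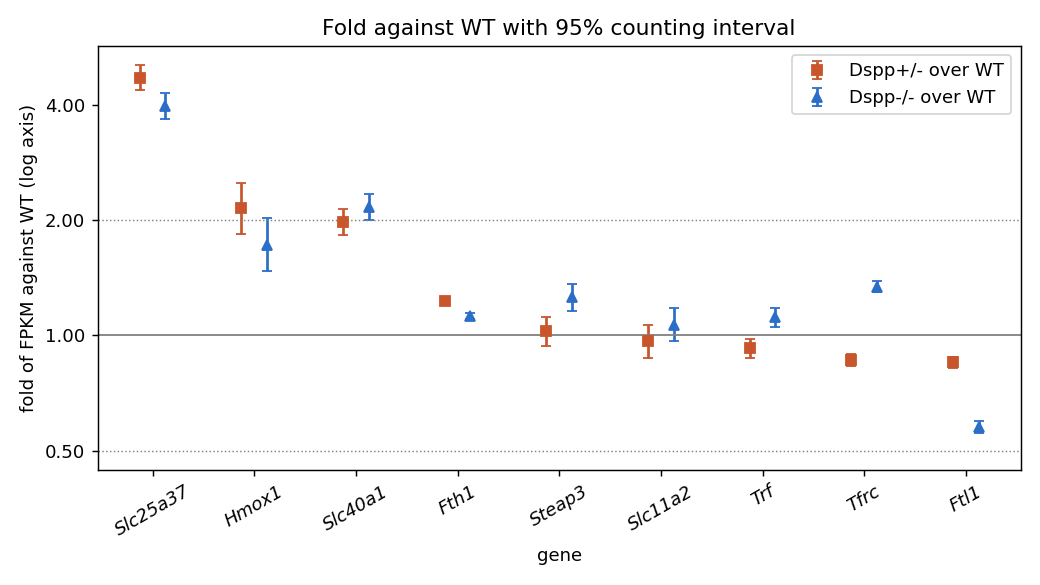
Fold of FPKM against WT on a log axis for each gene, ordered by the value in Dspp+/-, with 95% Clopper-Pearson counting intervals as bars and dotted lines at 2-fold and at its inverse. *Slc25a37* stands apart at 4.71 and 3.98, and *Ftl1* is lowest in both mutant libraries at 0.851 and 0.577.

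Gene positions from here on are as deposited, in a build that the header does not name. The hairpins of *Fth1*, *Ftl1*, *Slc40a1* and *Tfrc*, given above in GRCm38, lie outside the deposited spans of these genes. The deposited positions are therefore of another build and cannot be set against those of the hairpins. *Slc25a37* (ENSMUSG00000034248, chromosome 14 from 69479297 to 69522561) stood at 6.63 FPKM in WT against 31.2 in Dspp+/- and 26.4 in Dspp-/-. These values rest on 808, 4435 and 3531 fragments. Both mutant libraries were far above WT, and Dspp+/- was above Dspp-/-. The gain over WT was 4.71-fold (4.36 to 5.08) in Dspp+/- and 3.98-fold (3.68 to 4.30) in Dspp-/-. Its log2 ratio ranked 106th of 13026 genes in Dspp+/- and 133rd in Dspp-/-. *Slc25a28*, which encodes mitoferrin 2, the form of non-erythroid tissues, had 7.60, 6.86 and 6.34 FPKM, so that the ratio of *Slc25a37* to it was 0.872 in WT (0.783 to 0.972) but 4.55 and 4.16 in the mutant libraries (4.18 to 4.96 and 3.79 to 4.56). Fragments from 6.33% of the exon length of *Slc25a37* could also come from genes on the other strand, as the library kit does not mark strand.

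Beside this gene, the 22 erythroid markers listed, among them globins and band 3 (*Slc4a1*), summed to 914 FPKM in WT against 3833 in Dspp+/- and 3687 in Dspp-/-, and none was at 0. Of the 21 that averaged 1 FPKM or more, 19 were at least 2-fold higher in each mutant library, beside 4.88% and 4.05% of all genes. The median log2 ratios of the 21 were 2.26 and 2.15. The cell cycle list of 16 genes moved as well, from 51.9 to 163 and 156 FPKM summed. The part of these cells in the level of *Slc25a37* was not tested.

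The 9 enzymes of heme synthesis use the iron that mitoferrin brings in. All 9 were higher in Dspp+/- and 8 in Dspp-/-, of which 4 and 2 passed 2-fold, with median log2 ratios of 0.83 and 0.70. Of all genes compared, 56.3% and 50.7% were above WT, and 4.88% and 4.05% were at least 2-fold higher. *Alas2* stood at 7.48 FPKM in WT against 43.2 in Dspp+/- and 41.3 in Dspp-/-, a fold of 5.78 (5.17 to 6.47) and 5.52 (4.94 to 6.19). *Fech*, for the enzyme that inserts iron into the ring, had 7.05, 11.9 and 12.041 FPKM, folds of 1.69 and 1.71. The ratio of *Slc25a37* to *Alas2* was 0.886 (0.782 to 1.01) in WT against 0.722 (0.687 to 0.758) in Dspp+/- and 0.638 (0.604 to 0.673) in Dspp-/-.

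*Tfrc* (ENSMUSG00000022797, chromosome 16 from 32427738 to 32451612) was at 48.5 FPKM in WT, below that in Dspp+/- at 41.9 and above it in Dspp-/- at 65.0, from 6078, 6124 and 8945 fragments. The mutant libraries lay on opposite sides of WT. Set against WT, Dspp+/- had 0.864 times the level (0.833 to 0.895) and Dspp-/- 1.34 times (1.2956 to 1.38), and Dspp-/- was 1.55-fold above Dspp+/- (1.5002 to 1.60). The 21 erythroid genes compared were all above WT in both mutant libraries, beside 56.3% and 50.7% of all genes. The part of erythroid cells in the level of *Tfrc* was not tested. The ratio of *Slc25a37* to *Tfrc* was 0.137 in WT, 0.744 in Dspp+/- and 0.405 in Dspp-/-. Osteoclasts also express *Tfrc*, and their 14 listed markers summed to 2388 FPKM in WT against 894 in Dspp+/- and 1422 in Dspp-/-. Of these 14 genes, 6 were at least 2-fold lower in Dspp+/- and 1 in Dspp-/-, beside 2.86% and 1.37% of all genes. *Ctsk*, the cathepsin K gene, had 863, 279 and 481 FPKM. The part of osteoclasts in the level of *Tfrc* was not tested.

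**Figure D3:**
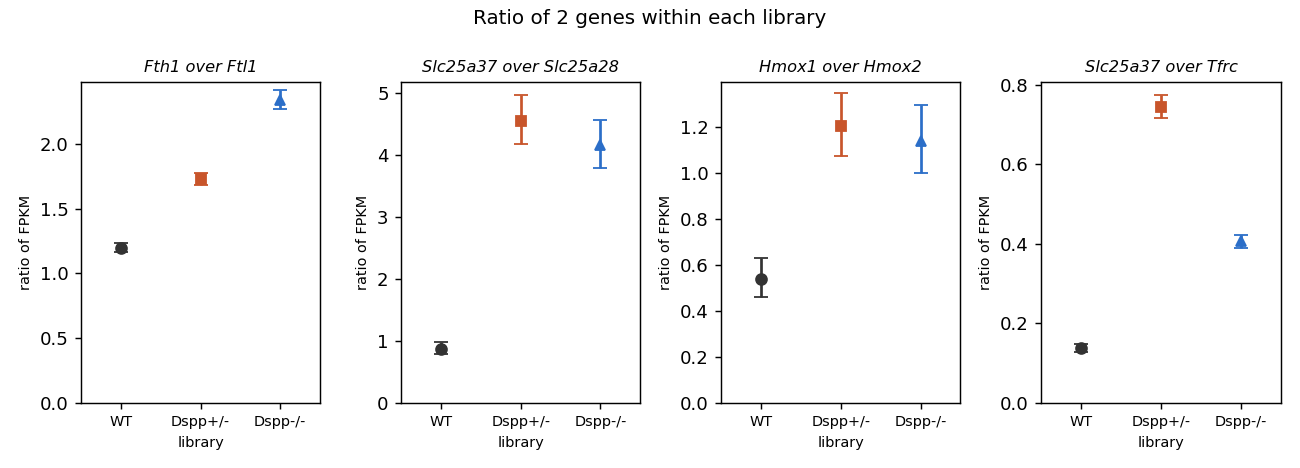
Ratio of FPKM of 2 genes within each library (y axis, from 0) with 95% Clopper-Pearson counting intervals as bars, 1 panel per pair. *Slc25a37* over *Slc25a28* moves from 0.872 in WT to 4.55 and 4.16, and *Fth1* over *Ftl1* from 1.20 to 1.73 and 2.34.

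*Slc11a2* (ENSMUSG00000023030, chromosome 15 from 100285779 to 100322953) was nearly level over the libraries, with 5.92 FPKM in WT against 5.72 in Dspp+/- and 6.32 in Dspp-/-. Its fold over WT was 0.965 (0.874 to 1.07) for the Dspp+/- library and 1.07 (0.968 to 1.18) for the Dspp-/- library, and both intervals include 1. *Steap3* (ENSMUSG00000026389, chromosome 1 from 120118487 to 120200435) had 8.69, 8.89 and 10.9 FPKM, a fold of 1.02 (0.940 to 1.11) and 1.26 (1.16 to 1.36). *Trf* (ENSMUSG00000032554, chromosome 9 from 103081200 to 103107643) had 33.2, 30.7 and 37.0 FPKM, a fold of 0.926 (0.873 to 0.981) and 1.12 (1.05 to 1.18). These 3 genes thus stayed within 1.26-fold of WT in both mutant libraries, and 3 scalings turned *Steap3* in Dspp+/- to below WT, while 1 turned *Trf* and *Slc11a2* in Dspp-/- to below WT. The gene Gm20425 overlaps *Trf* on the same strand and holds 77.3% of its 100-base sequences, so fragments of the pair could not be told apart. Myelinating glia express *Trf*, and the 10 Schwann cell markers listed summed to 72.1, 64.1 and 71.3 FPKM, lowest in Dspp+/- as *Trf* was. Their part in its level was not tested.

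Ferritin was by far the most abundant part of the pathway. *Fth1* (ENSMUSG00000024661, chromosome 19 from 9957962 to 9962462) was at 319 FPKM in WT against 391 in Dspp+/- and 359 in Dspp-/-, from 22420, 32061 and 27724 fragments. *Ftl1* (ENSMUSG00000050708, chromosome 7 from 45107368 to 45109308) had 266, 227 and 154 FPKM, from 7224, 7174 and 4579 fragments. The heavy chain gene was slightly above WT in both mutant libraries and the light chain gene below it. In Dspp+/- *Fth1* was 1.23-fold of WT (1.21 to 1.25) and in Dspp-/- 1.12-fold (1.11 to 1.14), and for *Ftl1* the folds were 0.851 (0.824 to 0.880) and 0.577 (0.555 to 0.598). The gain of *Fth1* depended on the scaling. Its log2 ratio in Dspp+/- was 0.29, but 0.09 under scaling to housekeeping genes. In Dspp-/- it was 0.17, but 0.002 with hemoglobin, immunoglobulin and skeletal muscle genes left out of the scaling. *Ftl1* stayed below WT under every setting in both mutant libraries. The log2 ratio of *Ftl1* in Dspp-/-, -0.79, was lower than that of all but 3.30% of the genes compared, without reaching 2-fold.

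The ratio of heavy to light chain within a library does not depend on scaling between libraries, and it was 1.20 (1.17 to 1.23) in WT against 1.73 (1.68 to 1.77) in Dspp+/- and 2.34 (2.27 to 2.41) in Dspp-/-, with no overlap among the intervals of the 3 libraries. The size of this ratio depends on length, since the merged exons of *Fth1* span 3469 bases and its principal transcript 929. Per length of the principal transcript the ratio was 3.23, 4.66 and 6.31, in the same order of libraries. Of the 100-base sequences of *Ftl1*, 78.6% also occur in 6 other genes, pseudogenes among them, so its fragments may have been split or discarded. *Ftl1-ps1*, one of these, had 4.89, 3.29 and 1.47 FPKM, and *Fth1* shares 0.964% of its sequences. *Ncoa4*, the receptor that sends ferritin to lysosomes, had 4.94, 7.28 and 8.67 FPKM, folds of 1.47 and 1.75, and *Pcbp1*, an iron chaperone that loads ferritin, had 87.6, 93.4 and 78.4 FPKM.

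*Slc40a1* (ENSMUSG00000025993, chromosome 1 from 45947228 to 45965683), the gene of the only known iron exporter, was at 4.83 FPKM in WT against 9.55 in Dspp+/- and 10.4 in Dspp-/-. The fragments were 880, 2030 and 2090. Both mutant libraries were above WT, by 1.98-fold (1.83 to 2.14) in Dspp+/- and 2.16-fold (1.9957 to 2.34) in Dspp-/-. On the log2(FPKM + 1) scale these are 0.86 and 0.97, below the threshold. The ferroxidases that load exported iron onto transferrin, *Cp* and *Heph*, were lower in both mutant libraries, with *Cp* at 27.9, 16.8 and 23.0 FPKM and *Heph* at 3.68, 2.42 and 2.97 FPKM, none of them 2-fold.

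*Hmox1* (ENSMUSG00000005413, chromosome 8 from 75820249 to 75827217) was at 6.72 FPKM in WT against 14.4 in Dspp+/- and 11.6 in Dspp-/-, from 238, 596 and 451 fragments. Both mutant libraries were above WT, by 2.15-fold (1.84 to 2.51) and 1.72-fold (1.47 to 2.03). *Hmox2*, for the constitutive heme oxygenase, had 12.5, 11.977 and 10.2 FPKM, and the ratio of *Hmox1* to *Hmox2* was 0.539 (0.461 to 0.628), 1.20 (1.07 to 1.35) and 1.14 (0.999 to 1.29). *Blvrb*, a biliverdin reductase gene also known from red cells, had 5.04, 9.27 and 7.32 FPKM.

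Iron-recycling macrophages are rich in *Hmox1* and *Slc40a1*. The 13 macrophage markers in the table, of 14 listed, summed to 216 FPKM in WT against 193 in Dspp+/- and 187 in Dspp-/-, and none was at 0. Of the 12 compared, 6 were above and 6 below WT in Dspp+/-, and 5 and 7 in Dspp-/-, with median log2 ratios of 0.05 and -0.09. Over all genes compared, 56.3% and 50.7% were above WT. *Cd68* had 50.4, 34.7 and 44.3 FPKM, and *Vcam1* was the 1 marker past 2-fold, in Dspp+/-, with 6.67, 14.4 and 10.6 FPKM. Outside that list, *Spic*, the factor of red pulp macrophages, had 0.437, 0.684 and 1.04 FPKM, and *Cd163*, the receptor for hemoglobin bound to haptoglobin, had 3.87, 4.17 and 6.10 FPKM. The list was mixed, with *Csf1r* at 43.2, 25.1 and 33.2 FPKM, *Adgre1* at 5.90, 8.30 and 7.83, and *Mrc1* at 6.30, 7.56 and 8.43. Erythroid cells also express *Hmox1* and *Slc40a1*, and the erythroid values are those given for *Slc25a37*. The part of either cell type was not tested.

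The wider iron pathway was described by 7 lists of 69 genes, of which 65 were in the table and 59 averaged 1 FPKM or more. In Dspp+/- 3 of the 59 were at least 2-fold higher and 3 at least 2-fold lower, beside 4.88% and 2.86% of all genes compared. In Dspp-/- 2 were higher and 3 lower, beside 4.05% and 1.37%, so that the higher shares were near those of all genes. The median log2 ratio was 0.05 and -0.07. Among uptake genes, the 2-fold higher gene in both mutant libraries was *Lcn2*, lipocalin 2 of neutrophil granules that binds siderophores, with 18.0, 72.1 and 97.3 FPKM. Its receptor gene *Slc22a17* had 5.60, 2.22 and 2.37 FPKM and passed 2-fold lower in Dspp+/-. *Cybrd1*, a ferric reductase gene, had 7.24, 2.27 and 5.81 FPKM and was the 1 gene of the lists that differed 2-fold between the mutant libraries. *Steap1* was 2-fold lower in both, with 72, 4 and 21 fragments, and *Meltf*, for melanotransferrin, was so in Dspp-/- with 9.01, 6.40 and 3.70 FPKM. *Slc39a14*, a transporter of iron not bound to transferrin, had 13.3, 6.70 and 6.76 FPKM, and *Exoc6*, an exocyst gene needed for transferrin cycling in red cell precursors, had 9.22, 17.8 and 18.1 FPKM.

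**Figure D4:**
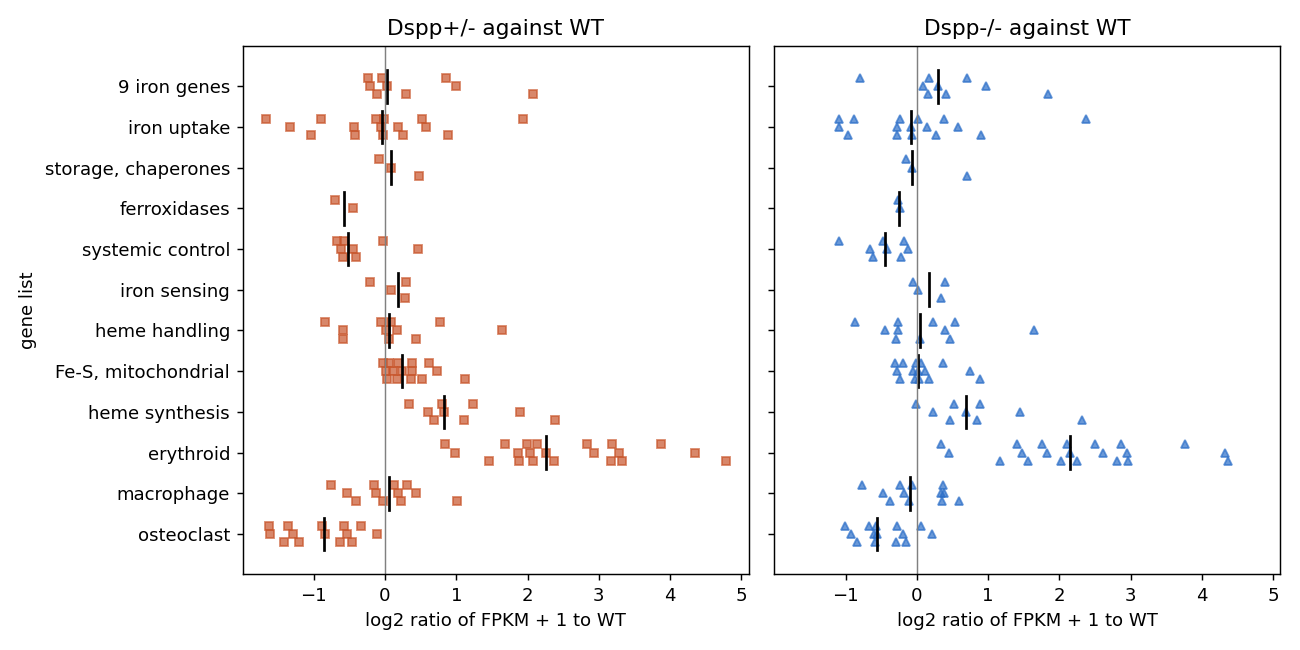
Log2 ratio of FPKM + 1 to WT (x axis) for each gene averaging 1 FPKM or more in the lists named on the y axis, 1 panel per mutant library, with the median of each list as a black line. The erythroid list lies right of 0 with medians of 2.26 and 2.15, the osteoclast list left of it with -0.86 and -0.57, and the 9 iron genes spread from -0.23 to 2.08 and from -0.79 to 1.84.

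Genes of heme handling other than *Hmox1* gave 7 above and 4 below WT in Dspp+/- and 6 and 5 in Dspp-/-. *Hp*, haptoglobin, was the 1 past 2-fold in both, with 19.2, 62.2 and 62.0 FPKM. Among the 15 genes of iron-sulfur clusters and mitochondrial iron, 14 were above WT in Dspp+/- and 8 in Dspp-/-. Of all genes compared, 56.3% were above WT in Dspp+/- and 50.7% in Dspp-/-. The Dspp-/- counts of the heme handling and iron-sulfur lists were near that share. *Abcb10*, a mitochondrial transporter that stabilises mitoferrin 1, had 6.56, 15.5 and 13.0 FPKM, a fold of 2.36 (2.14 to 2.60) and 1.99 (1.80 to 2.20). The 4 iron sensing genes found had median log2 ratios of 0.19 and 0.17. They include the genes of both iron regulatory proteins, *Aco1* with 8.90, 7.59 and 8.59 FPKM and *Ireb2* with 8.25, 8.85 and 10.7 FPKM. Of the 8 systemic control genes compared, 7 were below WT in Dspp+/- and 8 in Dspp-/-, with medians of -0.51 and -0.45, and *Id1*, a target of BMP signals, was past 2-fold in Dspp-/- with 39.8, 28.8 and 18.1 FPKM. *Hamp*, the hepcidin gene of liver, had 0, 2 and 0 fragments, under a floor of 3.

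By pattern over the 3 libraries, likeness was measured as the distance between pairs of log2 ratios to WT among 7124 other genes that averaged 5 FPKM or more. The gene nearest to *Slc25a37* was *Clec7a*, at 0.05, and 0.295% of the genes lay within 0.25. For *Slc40a1* it was *Ppp1r3a* (0.03) and for *Hmox1* *Ppif* (0.03), with 0.997% and 1.67% of the genes within 0.25. For *Ftl1* it was *Neat1* (0.01) and for *Tfrc* *Emcn* (0.03), with 2.84% and 1.84%. The nearest to *Trf*, *Slc11a2*, *Steap3* and *Fth1* were Gm10131, *Atf7*, *Adam10* and *Phospho2*, each at 0.01 or less, and from 16.0% to 22.7% of the genes were as near as 0.25 to these 4. With 3 libraries that share 1 control, such nearness is a description of single values.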

How the data were processed

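Libraries of poly(A) RNA from mandibular condyles were read from both ends at 150 bases, with a kit that does not mark strand. The submitters' processing notes list FastQC 0.11.5, HISAT2 2.1.0, StringTie 1.3.3b and DESeq 1.28.0, and hg38, a human build, although the table holds mouse identifiers. The annotation and the strand setting were not given in the sources used here. The authors deposited 1 value per gene and genotype with no unit named, which was read as FPKM. Multiplied by merged exon length (GENCODE M21), these values gave whole fragments, within 0.05, for 98.9% of the genes under 100 fragments in each library and for all 9 genes described. The 98.9% includes genes without fragments, which count as whole whatever the unit. Library depths were recovered from the same steps, a procedure tested on simulated data. 1 fragment over 1 kilobase equals 0.0494, 0.0423 and 0.0449 FPKM in WT, Dspp+/- and Dspp-/-.

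Folds are ratios of the deposited FPKM with 95% Clopper-Pearson intervals from the fragments. Higher and lower genes were counted at a 2-fold ratio of FPKM + 1 where the mean reached 1 FPKM. Intervals and the floor of 3 fragments cover counting error only. The genes, lists and comparisons were chosen with earlier results of these data known. The genes named are the 9 genes, the nearest gene to each by pattern and, from the lists described, some of those past 2-fold or most abundant, since not every gene under that rule is printed. Genes of the lists named beyond that rule (among them *Slc25a28*, *Hmox2*, *Ncoa4*, *Heph*, *Slc39a14*, *Exoc6*, *Blvrb*, *Spic*, *Cd163*, *Fech*, *Aco1*, *Ireb2*, *Hamp*, *Gclc* and *Nqo1*) were chosen after their values were seen. Alternatives were other pseudocounts, filters and thresholds and 5 scalings, and the length of the principal transcript, which was added after seeing the data. Analyses ran in Python 3.11.15 with scipy 1.17.1, numpy 2.4.6 and pandas 2.3.3.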

Additional observations from a re-analysis of the deposited data

How the results depend on the processing

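*Slc25a37* passed the threshold for higher than WT in both mutant libraries under all alternatives run but the 4-fold threshold. That threshold left 1 of the 9 genes in Dspp+/-, *Slc25a37*, beside 0.952% of all genes compared, and 0 in Dspp-/-, beside 0.791%. A pseudocount of 0.1 gave 2 genes higher in Dspp+/- (*Hmox1* joined) and 2 in Dspp-/- (*Slc40a1* joined), and so did scaling without mitochondrially encoded genes, with 2 and 2. The shares of all genes compared were 7.45% and 6.42% with that pseudocount, and 5.02% and 4.41% with that scaling. A threshold of 1.5-fold gave 3 higher in Dspp+/-, beside 11.5% of all genes compared. In Dspp-/- it gave 3 higher, beside 8.84%, and 1 lower (*Ftl1*), beside 8.21%. In Dspp-/- against Dspp+/- it gave 1 higher (*Tfrc*), beside 3.39%. The other settings, a pseudocount of 5, no filter, a mean of at least 5 FPKM and the other 4 scalings, left these counts as they were. Over all settings *Slc25a37* ranged from 1.64 to 2.22 in Dspp+/- and from 1.43 to 1.97 in Dspp-/- on the log2 scale. The sign turned for 1 of the 9 genes in Dspp+/- (*Steap3*), for 2 in Dspp-/- (*Trf* and *Slc11a2*), and for 1 between the mutant libraries (*Fth1*, under housekeeping scaling). The cause was not tested.

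Scaling to housekeeping genes moved the median of all genes in Dspp+/- by -0.16, and leaving hemoglobin, immunoglobulin and muscle genes out of the total moved it by -0.16 in Dspp+/- and -0.14 in Dspp-/-. The balance of higher to lower genes then went from 636 and 373 to 475 and 595 and to 491 and 592 in Dspp+/-, from 527 and 179 to 436 and 334 in Dspp-/- under the latter, and, between the mutant libraries, from 111 and 104 to 140 and 80 under housekeeping scaling, which moved that median by 0.11. With a pseudocount of 0.1 there were 971 and 605 genes in Dspp+/- and 836 and 363 in Dspp-/-, and with one of 5 there were 185 and 156, and 136 and 45. No paired analysis was possible because each genotype has 1 library, and no library could be left out.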

Other observations

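*Hmox1* is also a target of NRF2, the factor that responds to oxidants, and 8 further NRF2 targets were in the table, 7 of them averaging 1 FPKM or more. In Dspp+/- 6 of the 7 were above WT, with a median log2 ratio of 0.25, and in Dspp-/- 3 were, with a median of -0.15. Over all genes compared, 56.3% and 50.7% were above WT. *Gclm*, for a subunit of the enzyme that begins glutathione synthesis, was the 1 gene past 2-fold, in Dspp+/-, at 4.52 FPKM in WT against 10.1 in Dspp+/- and 9.40 in Dspp-/-. Its partner *Gclc* had 6.05, 10.7 and 10.4 FPKM, and *Gsr*, glutathione reductase, had 27.4, 49.5 and 44.5 FPKM. *Nqo1*, a widely used NRF2 target, had 7.95, 8.18 and 6.19 FPKM.

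*Hjv*, the gene of hemojuvelin, which muscle expresses, was the most abundant gene of the systemic control list, at 102 FPKM in WT against 141 in Dspp+/- and 92.7 in Dspp-/-. The 12 skeletal muscle markers listed summed to 13041, 18186 and 14054 FPKM. The 9 adipocyte markers summed to 127, 179 and 228 FPKM and the 10 endothelial markers to 212, 234 and 219 FPKM. Of the 8 adipocyte genes compared, 5 were above and 3 below WT in Dspp+/-, and 8 and 0 in Dspp-/-. Over all genes compared, 56.3% and 50.7% were above WT. The adipocyte sum thus hides a mixed list in Dspp+/-, where *Cfd* was past 2-fold lower, with 23.5, 8.50 and 62.0 FPKM.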
